A study of Schmidtea mediterranea with 24 samples.

Results

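The contigs described here had fewer reads in control planarians fed double-stranded RNA 12 times than in control planarians fed it 10 times, and differed little between either RNAi group and its own controls. They were selected on measured values, namely group means of CPM (a contig's reads per 1000000 reads counted in that animal). Each log2 ratio was taken between group mean CPM values after 0.5 was added to both. A contig was kept when its mean over all 24 animals was at least 2 CPM, its log2 ratio of 12-feeding over 10-feeding controls was at most −0.6, and at least 4 of the 5 12-feeding controls lay below every 10-feeding control. Its log2 ratios of nkx1-1 RNAi over 12-feeding controls and of myoD RNAi over 10-feeding controls also had to lie within 0.3 of 0. The rule kept 161 of 26563 contigs (0.606%), or 1.16% of the 13822 contigs with a mean of at least 2 CPM, called the measured background here.

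The animals were the planarian flatworm Schmidtea mediterranea, strain CIW4, and polyadenylated RNA was sequenced with 1 library per animal. The 4 groups were 7 nkx1-1 RNAi animals fed 12 times in 9 weeks, 5 controls on the same schedule, 6 myoD RNAi animals fed 10 times in 7 weeks, and 6 controls on that shorter schedule. All 24 animals were fed dsRNA in liver, and for the controls it was made from the Caenorhabditis elegans (nematode) gene unc-22. Whether a library was a single animal is given differently in the records, since the tissue label, the title and the design name individual intact worms, while the extraction text names pooled wounds of tail fragments, and single animals are assumed here.

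Planarians replace their tissues continuously from dividing stem cells called neoblasts, and they grow when fed and shrink when starved. RNAi by feeding lowers the RNA of the targeted gene throughout the body, so long feeding series are used to follow tissues through their turnover. The genes myoD and nkx1-1 encode transcription factors required for longitudinal and circular body-wall muscle fibres in planarians. The number of feedings, the weeks elapsed and the cohort cannot be told apart between the schedules. In RNA from whole animals, fewer cells of a type and less RNA per cell cannot be told apart either.

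The deposited files give contig IDs without gene names, so no contig is given a gene name or a role, and neither the tissue label nor the knockdown of the targeted genes was checked against named genes. Total counts ranged from 9757113 to 18136698 per library. The contig ranked first by its summed count across the 24 animals took 6.60% to 8.02% of counts in nkx1-1 RNAi animals, 6.77% to 8.59% in 12-feeding controls, 7.90% to 10.1% in myoD RNAi animals and 8.71% to 9.93% in 10-feeding controls. In nkx1-1 RNAi replicate 1 6.79% of counts fell on dd_Smed_v4_4_1_1, a contig named only once its level was known. The 12-feeding control replicate 3 stood apart from the other 4 of its group in many values below, and the summed levels, the median ratios and the counts that it moves most are also given without it.

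Together the 161 contigs held a smaller share of the counts in every animal of the 12-feeding schedule than in every animal of the 10-feeding schedule. Their summed CPM was 5772, 5565, 5133, 6450, 5178, 6558 and 6424 in the 7 nkx1-1 RNAi animals. It was 6265, 6201, 8602, 6396 and 5355 in the 12-feeding controls. In the myoD RNAi animals the lowest sum was 9272, the median 10268 and the highest 10968, and in the 10-feeding controls these were 10389, 10499 and 11001. Replicate 3 of the 12-feeding controls lay above all other 12-feeding animals and below all 12 animals on the shorter schedule. No sum of the 12-feeding schedule overlapped one of the 10-feeding schedule. The contigs were chosen for lower levels in the 12-feeding controls, with both RNAi groups near their controls. The separation of the sums therefore follows largely from the selection and is a description.

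The mean sum was 5869 ± 611 CPM in nkx1-1 RNAi animals (SD, n = 7) and 6564 ± 1211 CPM in 12-feeding controls (SD, n = 5). It was 10243 ± 569 CPM in myoD RNAi animals and 10557 ± 227 CPM in 10-feeding controls (SD, n = 6 each). Without replicate 3, the 12-feeding controls averaged 6054 ± 473 CPM (SD, n = 4). The mean of the 12-feeding controls was 62.2% of that of the 10-feeding controls with replicate 3, and 57.3% without it. The contigs held 0.860% of the counts of replicate 3 (95% Wilson interval 0.856% to 0.865%) and 0.536% of those of replicate 5 (0.532% to 0.539%). Such intervals cover counting error only.

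**Figure D1:**
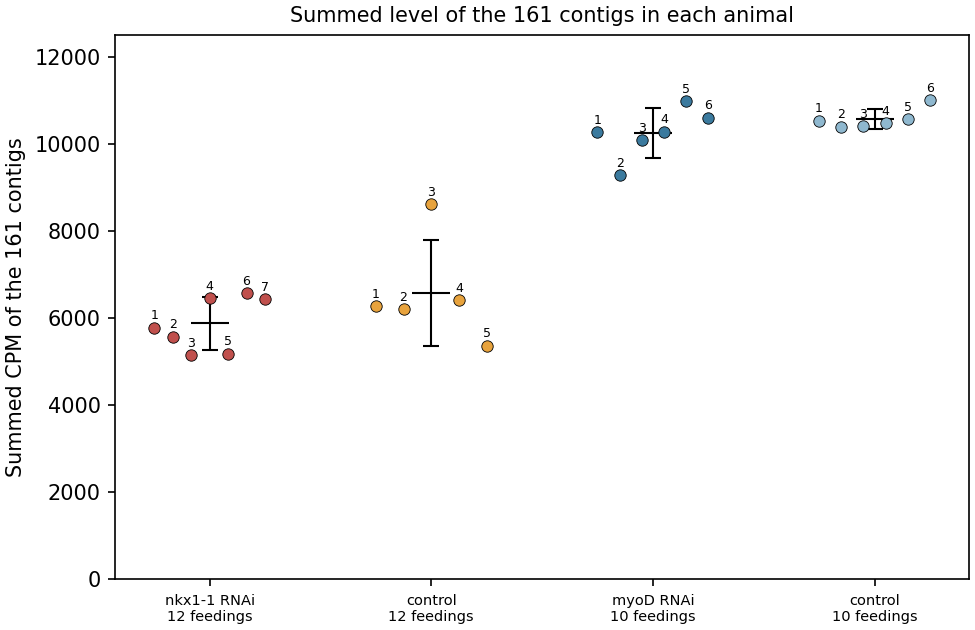
Summed CPM of the 161 contigs (vertical axis, starting at 0) in each animal, by group, with replicate numbers beside the points, horizontal lines for group means and error bars for SD. The 12-feeding animals sit between 5133 and 8602 CPM and the 10-feeding animals between 9272 and 11001 CPM.

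The rule cut the ratio between the control groups at −0.6, so the values of the 161 contigs lie at or below that limit by construction, most of them close to it. The log2 ratio of 12-feeding over 10-feeding controls had a median of −0.68, with quartiles of −0.76 and −0.63 and a range of −2.03 to −0.60. Only 3 contigs were at or below −1, another 29 lay between −1 and −0.8, and 129 lay above −0.8. Over the measured background the median was −0.04, with 7806 of 13822 contigs below 0. Without replicate 3 of the 12-feeding controls, the median of the 161 was −0.79.

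The rule used this contrast, so the edgeR quasi-likelihood counts that follow are descriptions and nothing is read from them. All 161 contigs were called lower in 12-feeding than in 10-feeding controls at a Benjamini-Hochberg adjusted p under 0.05, where 16.8% of all contigs tested were called lower. All 5 12-feeding controls lay below every 10-feeding control in 135 contigs, against 9.93% of the measured background. In the other 26 contigs a single 12-feeding control did not, and this was replicate 3 in 22 of them. Without replicate 3, all 4 remaining 12-feeding controls lay below every 10-feeding control in 157 contigs, against 18.7% of the measured background.

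In its median over the contigs, replicate 3 of the 12-feeding controls lay between the other 4 and the 10-feeding controls. It was the highest of its group in 138 of the 161, against 34.0% of the measured background. In 116 it lay above the other 4 and still below every 10-feeding control, and no background share was computed for this count. The rule required at least 4 of the 5 controls to lie below every 10-feeding control, so the 116 is a description. Its median log2 difference from the 10-feeding control mean was −0.36, where the other 4 had −0.75, −0.78, −0.70 and −0.96. Replicate 5 was at the opposite end and was the lowest of its group in 104 contigs, against 33.1% of the measured background.

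Contigs chosen by the same rule with the schedule signs turned round gave a matching position for replicate 3. There were 194 such contigs, higher in 12-feeding than in 10-feeding controls. Their median log2 difference from the 10-feeding control mean was 0.35 in replicate 3, and 0.81, 0.85, 0.80 and 0.85 in the other 4. The displacement of replicate 3 was 45.3% of the mean of the other 4 for the 161 lower contigs and 42.1% for the 194 higher ones. Both lists were selected on these libraries.

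**Figure D2:**
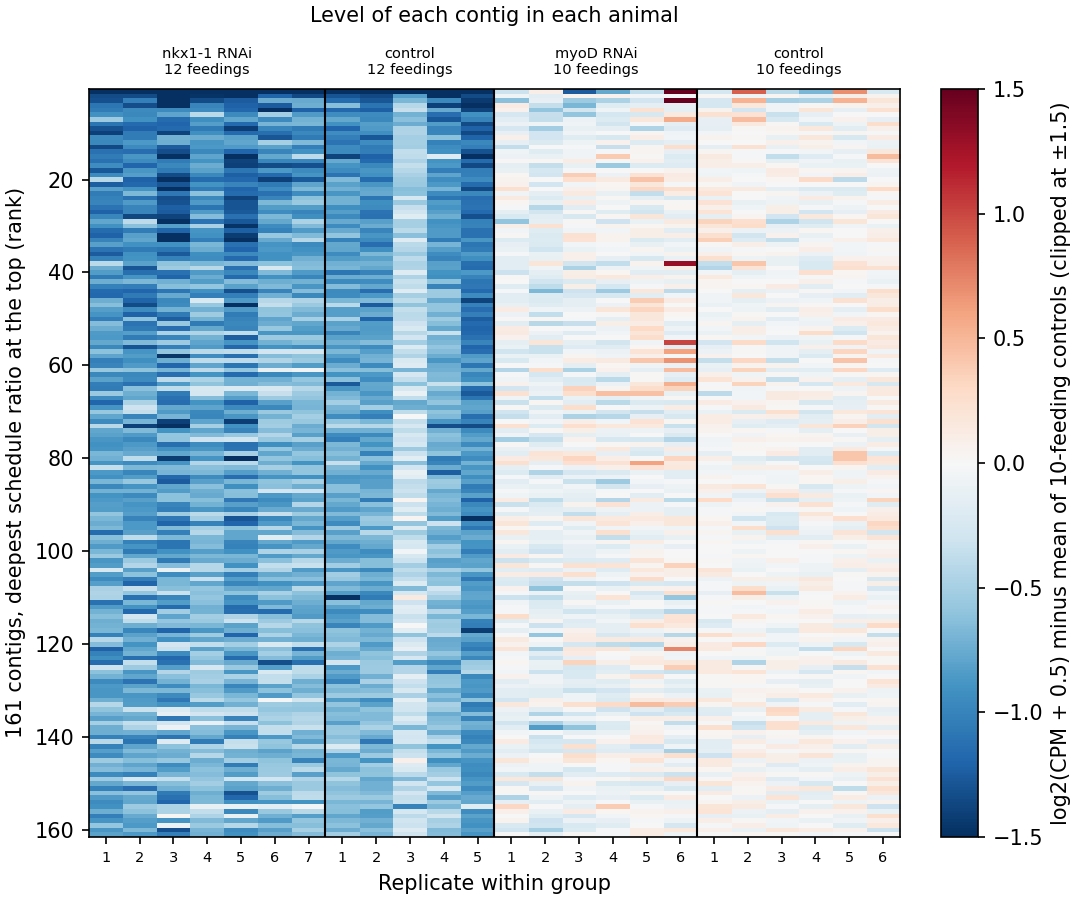
Each row is 1 of the 161 contigs, ordered by its schedule ratio with the lowest at the top, and each column is 1 animal. Colour gives log2(CPM + 0.5) minus the mean of the 10-feeding controls, with blue for lower and red for higher, and the colour scale stops at −1.5 and 1.5. The nkx1-1 RNAi animals and 12-feeding controls are blue, replicate 3 of the 12-feeding controls is paler, and the myoD RNAi animals and 10-feeding controls are near white.

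The contig with the lowest schedule ratio, dd_Smed_v4_14711_0_1, was under 1 CPM in all 12-feeding animals. Its level was 0.3995 CPM at the lowest, 0.717 at the median and 0.961 at the highest in nkx1-1 RNAi animals, and 0.803, 0.416, 0.595, 0.628 and 0.706 CPM in 12-feeding controls. It was 1.28, 2.82 and 16.1 CPM at the lowest, median and highest in myoD RNAi animals, and 2.14, 3.06 and 7.37 CPM in 10-feeding controls. The groups of the 2 schedules did not overlap, and the 10-feeding animals were spread much more widely than the 12-feeding ones.

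Counts of this contig were 6 to 13 per library in nkx1-1 RNAi animals and 7 to 13 in 12-feeding controls. They were 18 to 217 in myoD RNAi animals and 32 to 104 in 10-feeding controls. The fitted log2 fold change of 12-feeding over 10-feeding controls was −2.65 ± 0.37 (SE) in edgeR. The authors' deposited table gave ratios of 1.02 for nkx1-1 RNAi over its controls and 1.195 for myoD RNAi over its controls.

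The second lowest, dd_Smed_v4_1659_0_1, differed between schedules with little spread inside the groups. It was at 13.7, 18.4 and 20.5 CPM (lowest, median, highest) in nkx1-1 RNAi animals and at 19.2, 18.4, 26.6, 15.5 and 18.5 CPM in 12-feeding controls. It was at 42.7, 46.6 and 49.9 CPM in myoD RNAi animals and at 43.3, 48.5 and 50.8 CPM in 10-feeding controls. The schedules did not overlap, and the highest 12-feeding value was again replicate 3 of the controls. Its edgeR log2 fold change between the control groups was −1.25 ± 0.10 (SE), and the authors' deposited table gave ratios of 0.865 for nkx1-1 RNAi and 0.982 for myoD RNAi.

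The 3 members with the most counts had the arrangement of group means that the rule required of every member. The first was at 703, 840 and 1058 CPM (lowest, median, highest) in nkx1-1 RNAi animals, at 979, 1020, 1328, 989 and 812 CPM in 12-feeding controls, at 1269, 1553 and 1718 CPM in myoD RNAi animals and at 1518, 1596 and 1663 CPM in 10-feeding controls. Its replicate 3 value of 1328 CPM exceeded the lowest myoD RNAi value, so the schedules overlapped there, while every 12-feeding control lay below every 10-feeding control.

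The second of the 3 was at 470, 582 and 660 CPM in nkx1-1 RNAi animals, at 597, 631, 935, 624.7 and 569 CPM in 12-feeding controls, at 911, 1022 and 1054 CPM in myoD RNAi animals and at 1019.5, 1036 and 1086 CPM in 10-feeding controls. The third was at 269, 304 and 327 CPM in nkx1-1 RNAi animals, at 307, 319, 485, 332 and 300.1 CPM in 12-feeding controls, at 493, 513 and 547 CPM in myoD RNAi animals and at 529, 552 and 582 CPM in 10-feeding controls. Replicate 3 was far above the other 4 controls in both, and in the second it exceeded the lowest myoD RNAi animal, while in the third the schedules did not overlap. The log2 ratios between control groups were −0.63, −0.64 and −0.66 for the 3 contigs.

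The rule held the nkx1-1 RNAi ratios within 0.3, so their size is no result, and their lean below 0 depended largely on 1 control. The log2 ratio of nkx1-1 RNAi over 12-feeding controls had a median of −0.11 over the 161 contigs, with 117 below 0. The measured background had a median of 0.03, with 5625 of 13822 contigs below 0. Without replicate 3 of the 12-feeding controls the median was 0.0024, with 84 contigs above 0 and quartiles of −0.09 and 0.12, and 5 contigs were then at or past 0.3. The median edgeR log2 fold change was −0.15 with all controls and −0.04 without replicate 3. For the 194 contigs of the turned-round rule the median was 0.06 with all controls and −0.01 without replicate 3. The measured background moved little, with medians of 0.03 and 0.04.

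No contig of the 161 was called in either direction by edgeR for nkx1-1 RNAi over 12-feeding controls, where 3.87% of all contigs tested were called. DESeq2 called 2 of them lower, where it called 590 of all 26563 contigs lower. At an unadjusted edgeR p under 0.05 there were 30 lower and 0 higher. Without replicate 3 of the 12-feeding controls, edgeR called 0, and 7 lower and 7 higher had an unadjusted p under 0.05. No share over all contigs was computed for the unadjusted counts and the rule bounded this contrast, so nothing is read from them. The 7 nkx1-1 RNAi animals lay all below the 5 12-feeding controls in 0 contigs, against 1.09% of the measured background. The authors' deposited table gave a median ratio of 0.906 for the 161 contigs, with a range of 0.794 to 1.25.

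**Figure D3:**
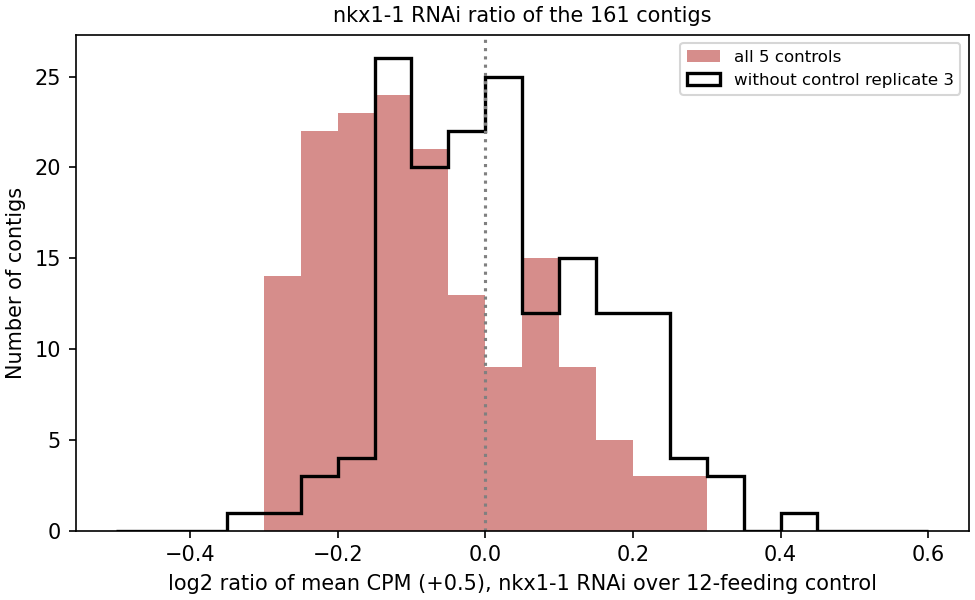
Log2 ratio of nkx1-1 RNAi over 12-feeding controls (horizontal axis) against the number of contigs, for the 161 contigs with all 5 controls (filled) and without control replicate 3 (outline). The medians are −0.11 and 0.0024.

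Largely through the rule's limits, the nkx1-1 RNAi animals all lay below the 10-feeding animals in their median over the 161 contigs. Their median log2 differences from the 10-feeding control mean ran from −0.91 in replicates 3 and 5 to −0.68 in replicate 7. Replicate 1, in which dd_Smed_v4_4_1_1 took 6.79% of the counts, had −0.86. Leaving it out moved the median nkx1-1 ratio to −0.09. Over the measured background the same median difference was −0.15 in replicate 1, 0.09 in replicate 3, 0.07 in replicate 5 and 0.0005 in replicate 7. The medians of the 161 contigs are therefore not directly comparable between these animals.

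In myoD RNAi animals the 161 contigs were close to their controls, as the rule required. The median log2 ratio was −0.06, with a range of −0.30 to 0.27 and 114 contigs below 0. The measured background had a median of −0.02, with 8326 of 13822 contigs below 0. By edgeR 9 contigs were called lower, where 2.37% of all contigs tested were, with log2 fold changes of −0.31 to −0.22. A single contig was called higher, at 0.29, where 5.16% of all contigs tested were. All 6 myoD RNAi animals lay below all 6 controls in 6 contigs, against 1.64% of the measured background. Nothing is read from these counts, since the rule bounded the contrast.

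The rule's 3 limits together also force every one of the contigs to be lower in nkx1-1 RNAi than in myoD RNAi animals. The median log2 ratio of nkx1-1 RNAi over myoD RNAi was −0.74, with a range of −2.20 to −0.11, and 158 contigs were called lower by edgeR, where 22.6% of all contigs tested were. All 7 nkx1-1 RNAi animals lay below all 6 myoD RNAi animals in 130 contigs, against 12.2% of the measured background. Between these groups the targeted gene cannot be told apart from the schedule and the cohort.

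All 12 animals of the 12-feeding schedule lay below all 12 of the 10-feeding schedule in 86 contigs, against 3.62% of the measured background. With replicate 3 of the 12-feeding controls left out, this held for 121 of the 161 contigs and for 1019 of the 13822 in the measured background. Such separation is favoured by the rule, which set the control groups apart and kept both RNAi groups near their controls. Nothing is read from these counts.

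Within groups, the spread of the 161 contigs was wider than that of the measured background, most of all in the 12-feeding controls. The median SD of log2(CPM + 0.5) over animals was 0.204 for the contigs and 0.156 for the background in nkx1-1 RNAi animals, and 0.260 and 0.145 in 12-feeding controls. It was 0.140 and 0.108 in myoD RNAi animals, and 0.127 and 0.110 in 10-feeding controls. Without replicate 3 the 12-feeding controls had 0.176 for the contigs and 0.114 for the background. The median level over all animals was 14.5 CPM for the 161 contigs and 19.6 CPM for the background. Level was not matched in this comparison, and the rule used the values of the control groups.

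The contigs also varied together in the 12-feeding controls. The mean pairwise correlation between contigs over the 5 animals was 0.617 for the 161 and 0.0410 for the measured background, and without replicate 3 it was 0.295 and 0.0641. It was 0.197 and 0.20 in nkx1-1 RNAi animals, 0.151 and 0.0360 in myoD RNAi animals, and 0.0281 and 0.0478 in 10-feeding controls. The rule chose the 161 on the control values and in the same direction, while the background holds contigs of both directions. The 161 and the background are therefore not compared like for like. These values describe contigs that share libraries and depth, and they carry no test.

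**Figure D4:**
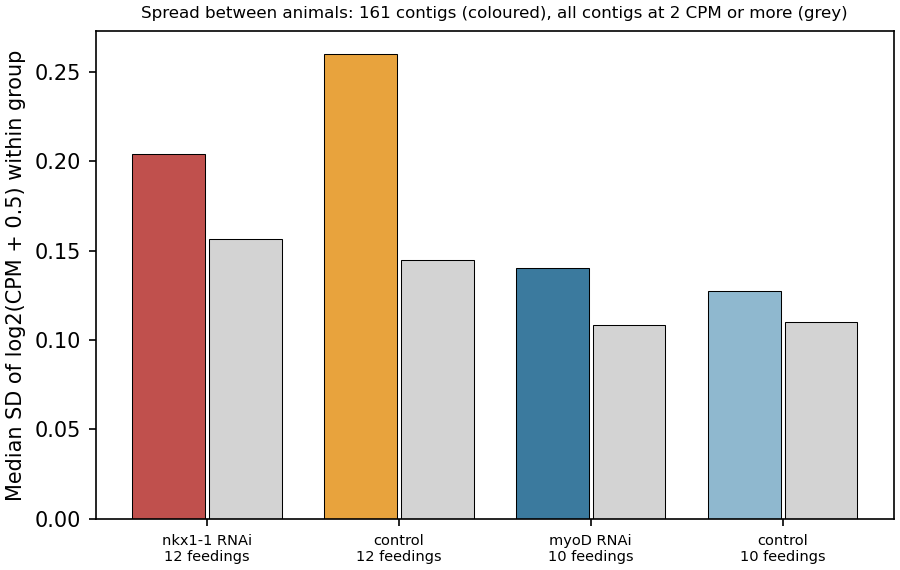
Median over contigs of the SD of log2(CPM + 0.5) between animals of a group (vertical axis, starting at 0), for the 161 contigs in colour and for the measured background in grey. The coloured bar is the higher of the pair in each group, and the 12-feeding controls have the highest, at 0.260.

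A few of the 161 contigs shared another pattern among the 10-feeding animals, led by myoD RNAi replicate 6. That animal was over 1.5 times the mean of the other 5 myoD RNAi animals in 9 contigs, against 0.796% of the measured background, while its median over all 161 was 1.02. The ratio was 6.22 for dd_Smed_v4_14711_0_1, 3.90 for dd_Smed_v4_4392_0_1, 2.69 for dd_Smed_v4_3257_0_1, 2.15 for dd_Smed_v4_8747_0_1 and 1.54 to 1.74 for the other 5. The 3 contigs named after dd_Smed_v4_14711_0_1 were chosen after their values were seen.

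The contig dd_Smed_v4_4392_0_1 was at 19.5, 24.7 and 35.1 CPM (lowest, median, highest) in nkx1-1 RNAi animals and at 26.3, 23.9, 36.4, 30.04 and 21.4 CPM in 12-feeding controls. It was at 37.99, 45.4 and 174 CPM in myoD RNAi animals and at 41.8, 58.2 and 85.2 CPM in 10-feeding controls. Apart from replicate 6, the myoD RNAi animals did not exceed 54.0 CPM, and 10-feeding controls 2 and 5 were the highest of their group. The edgeR log2 fold change of 12-feeding over 10-feeding controls was −1.12 ± 0.19 (SE).

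The contig dd_Smed_v4_3257_0_1 was at 11.5, 12.8 and 15.3 CPM in nkx1-1 RNAi animals, at 12.2, 12.3, 14.6, 11.4 and 9.10 CPM in 12-feeding controls, at 15.7, 19.7 and 51.2 CPM in myoD RNAi animals and at 15.7, 20.3 and 27.4 CPM in 10-feeding controls. The contig dd_Smed_v4_8747_0_1 was at 12.9, 14.6 and 16.5 CPM in nkx1-1 RNAi animals, at 14.6, 15.3, 16.9, 15.0 and 12.0 CPM in 12-feeding controls, at 19.95, 22.8 and 49.6 CPM in myoD RNAi animals and at 19.7, 24.5 and 29.8 CPM in 10-feeding controls. The schedules did not overlap in either contig, and myoD RNAi replicate 6 was far above the rest. Their edgeR log2 fold changes between control groups were −0.76 ± 0.13 and −0.70 ± 0.11 (SE).

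Over the 12 animals of the 10-feeding schedule, deviations from the group means of these 3 contigs correlated with those of dd_Smed_v4_14711_0_1 at 0.925 to 0.946. The median correlation of the other 157 contigs with it was −0.00712. Over the 12 animals of the 12-feeding schedule, where dd_Smed_v4_14711_0_1 had 6 to 13 counts per library, the 3 correlations lay between −0.355 and 0.0766. These contigs were partly picked for myoD RNAi replicate 6, so the correlations carry no test.

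**Figure D5:**
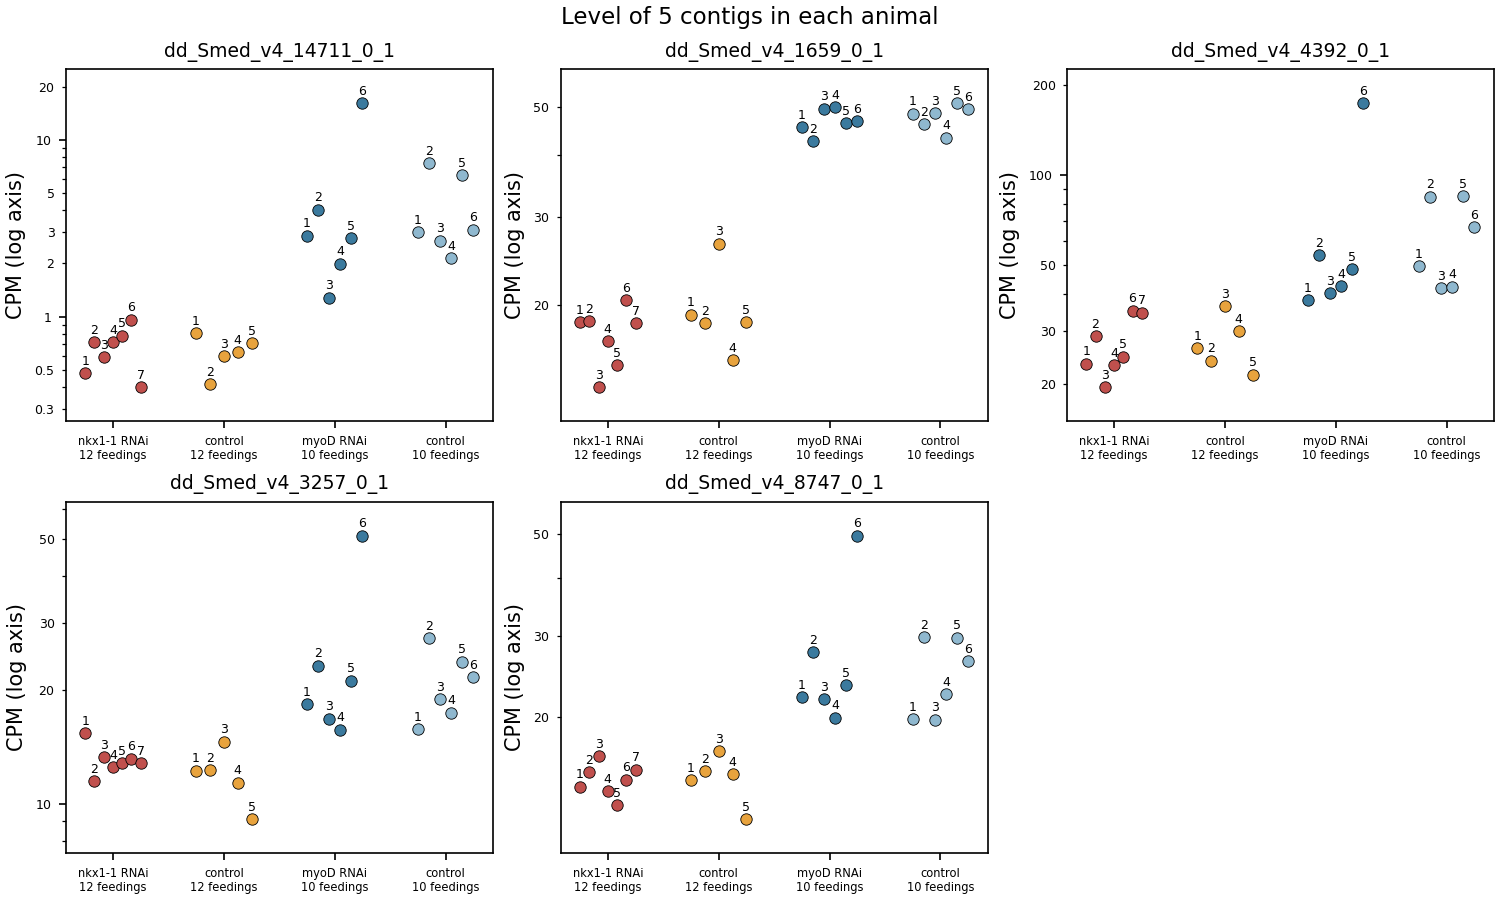
CPM of 5 contigs (vertical log axes) in each animal by group, with replicate numbers. In 4 of the 5 panels myoD RNAi replicate 6 is the highest point, and dd_Smed_v4_1659_0_1 shows no such animal.

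The rule's thresholds cut through continuous values. At the schedule threshold the nearest contigs inside had log2 ratios of −0.6001 and −0.6004, and the nearest outside had −0.5992 and −0.5989. At the nkx1-1 threshold these were −0.296 and −0.295 inside and −0.302 and −0.302 outside, and at the myoD threshold −0.295 and −0.289 inside and −0.300 and −0.305 outside. At the level threshold they were 2.12 and 2.16 CPM inside and 1.91 and 1.87 CPM outside. A further 52 contigs missed only the nkx1-1 limit, 48 of them lower in nkx1-1 RNAi animals than in 12-feeding controls, and 15 missed only the myoD limit.

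The 161 contigs came from 161 different components of the assembly, the groups of related contigs marked by the first number of the ID. In 3 cases another contig of the same component was outside the list. These had schedule log2 ratios of −0.10, −0.04 and −0.59, beside −0.73, −0.67 and −0.71 for the listed contig. Contigs of similar sequence can share reads, so values of such pairs may not be separate.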

How the data were processed

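Polyadenylated RNA of 24 libraries was used, grouped by the RNAi and feeding labels, made with a strand-specific mRNA kit according to the labels' protocols. The submitters' processing notes name CASAVA, cutadapt 1.8, Bowtie 1.1.1, SAMtools and DESeq, without saying what each did. How reads were aligned, and whether counting used strand, is not given in the sources used here. Raw read counts for each assembly contig, whole and unnormalised, were deposited by the authors, and 0 columns of other samples were present. They also deposited, per the file headers, size-factor-normalised group means (a signal value) and a linear fold change (ratio) for each RNAi group over its control, and only the ratios are quoted.

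CPM was count divided by library total. Each comparison was fitted on its 2 groups alone with edgeR 4.0.16 in R 4.3.3 (filterByExpr defaults, TMM factors, quasi-likelihood F test), with Benjamini-Hochberg adjustment over all contigs tested and a threshold of 0.05. SE is the size of the fold change over the square root of F. DESeq2 1.42.0 was an alternative. The rule and the fits were tested on simulated data. The closing text gives the other alternatives. Libraries held 9757113 to 18136698 counts, and counting error matters most for contigs with few counts. No 2 libraries of a group agreed within sampling noise, with chi-square per degree of freedom of 4.18 to 103 where a pair of libraries had 10 or more counts. Where nothing beyond the labels shows that replicates are separate animals, p-values measure only the spread between these samples.

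The members and lists were chosen with earlier results of these data known, and every comparison between groups was used or bounded by the rule. So no p is given for a member. IDs are printed for the 2 members with the lowest schedule ratio, the 3 members with the most counts are described by rank, and any other contig named is said to be chosen after its values were seen. No table of contig names was used here.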

Additional observations from a re-analysis of the deposited data

Results flagged for a closer look

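Values of a group of 4 to 10 animals were looked at for a single animal far from the rest, by Dixon's 95% criterion, over 36 sets of values. Chance flags about 1 in 20 sets that were not chosen on their values, so 1.8 would be found on average, and 7 were found. Some sets belong to contigs picked in part for an extreme animal, so the 7 are not read as an excess over chance. The sets share animals, so they are not separate.

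Of the 7, 4 were in myoD RNAi replicate 6. It had 16.1 CPM of dd_Smed_v4_14711_0_1, where the other 5 myoD RNAi animals had 1.28 to 4.03 CPM. It had 174 CPM of dd_Smed_v4_4392_0_1, against 37.99 to 54.0 CPM in the others, 51.2 CPM of dd_Smed_v4_3257_0_1, against 15.7 to 23.2 CPM, and 49.6 CPM of dd_Smed_v4_8747_0_1, against 19.95 to 27.6 CPM. These contigs were singled out in part because of this animal, so its place there is a description.

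Replicate 3 of the 12-feeding controls had 935 CPM of the member with the second most counts, against 569 to 631 CPM in the other 4, and 485 CPM of the third, against 300.1 to 332 CPM. Replicate 6 of the 10-feeding controls had a summed CPM of 11001 over the 161 contigs, against 10389 to 10554 in the other 5. No cause of these differences was tested.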

How the results depend on the processing

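The number of contigs the rule keeps depended on its settings and on single libraries. It was 98 with a pseudocount of 2, 360 with a schedule threshold of −0.5, 32 with −0.8, and 99 with RNAi limits of 0.2, against 161. With TMM scaling it was 115, of which 112 were among the 161. Leaving out 1 library at a time gave 92 to 346. The 346 came without replicate 3 of the 12-feeding controls (153 shared with the 161) and the 92 without replicate 5 (88 shared), and the cause was not tested. Leaving out both libraries that stand apart, a choice made after seeing the data, gave 343 (150 shared). Members called for nkx1-1 RNAi over 12-feeding controls numbered 2 with DESeq2 and 0 to 2 with 1 library left out. The median nkx1-1 log2 ratio of −0.11 turned to 0.0024 without replicate 3, an alternative also added after seeing the data, and ranged from −0.16 to 0.0024. Of the other results, the counts of members called lower between control groups (160 to 161), lower across RNAi groups (155 to 157) and called in myoD RNAi (7 to 11) stayed within 1.5 times with 1 library left out. The log2 fold change of dd_Smed_v4_14711_0_1 was −2.78 to −2.42 and that of dd_Smed_v4_1659_0_1 was −1.37 to −1.17. Over all contigs, 643 were called for nkx1-1 RNAi, against 1031 with DESeq2 and 214 to 947 with 1 library left out.

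Replicate numbers are shared by title only. Deviations of same-numbered animals from their group means correlated at −0.12 to 0.32 between control groups, and a pair was at or below 0.1 in every comparison, so the numbers are not taken to pair animals. The replicate block used only the replicate numbers present in both groups of a comparison. With it, 161 members were called lower between control groups, 0 were called for nkx1-1 RNAi, 10 for myoD RNAi and 157 across RNAi groups. Over all contigs the block left 12 calls for nkx1-1 RNAi, from 5 of the 7 nkx1-1 RNAi animals and the 5 controls. In the control groups 3 of 5 animals correlated best with their own number. Depth limits dd_Smed_v4_14711_0_1 most, with 6 to 13 counts per library in the 12-feeding animals.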
